A study of Mus musculus with 18 samples.

Results

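In neurons given 2-deoxyglucose (2-DG), 1235 genomic regions carried a called ATF4 peak in all 4 of the 2-DG peak lists. The regions described here are the 254 of them that were also called in 1, 2 or 3 of the 4 untreated lists, so that they are neither regions of 2-DG alone (616) nor regions of all 8 lists (365). They were chosen by those calls: peaks that shared at least 1 bp over the 8 lists were merged into 35717 regions on chromosomes 1 to 19 and X, and 254 of these, 0.711%, met the rule. The fold enrichments below come from the same peaks that chose the regions. They are the authors' own values for single peaks and are given as a description, with no test. Positions, gene content, promoter sequence and a further pair of lists were not used in the choice.

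ATF4 is a basic leucine zipper transcription factor of the integrated stress response. When kinases phosphorylate the translation initiation factor eIF2, most protein synthesis slows while translation of Atf4 mRNA rises, and ATF4 then binds composite C/EBP-ATF elements, usually as a dimer with a C/EBP protein. Its known targets take up and make amino acids, charge transfer RNAs, maintain glutathione and feed back on eIF2 phosphorylation. 2-DG is a glucose analogue that enters cells, is phosphorylated and then blocks glycolysis, and it also competes with mannose in N-linked glycosylation, which stresses the endoplasmic reticulum.

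Chromatin from primary immature mouse neurons, taken from E14 embryos and kept 2 days in culture, was immunoprecipitated and sequenced. The 2-DG group had received 10 mM 2-DG for 6 h (4 lists) and the control group was untreated (4 lists). Both groups had the same serum-containing medium and source of cells. The 2-DG lists held 15240, 7369, 6371 and 5856 peaks and the control lists 3461, 3784, 8202 and 6811. The series design gives an ATF4 antibody for both treatments, but the antibody field of the control samples says none, and the design speaks of 3 replicates. Nothing ties a list to its own culture or embryo. The labels conflict for a further pair of lists, 1 titled as control and described as 2-DG and 1 the other way round. These were kept out of both groups and are given separately. The lists carry no read counts, so depth is unknown, and where no peak is listed it was only not called. A lower fold can reflect fewer cells with ATF4 at a site or less ATF4 per cell, which cannot be told apart here.

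Several of the regions lay over a match to the known ATF4 element. The match is to TGATGNAA, the core of the C/EBP-ATF element. Of 13 promoters with both a 2-DG summit and a match, 8 are shown: those of genes in the lists whose nearest match lay wholly before the gene start. They run 5′ to 3′ along the gene and end before the gene start. Capitals mark the match, which reads TGATGNAA on the gene's strand or TTNCATCA where it lies on the other strand.
Chac1: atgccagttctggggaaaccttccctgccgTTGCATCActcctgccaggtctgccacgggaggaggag
Aars: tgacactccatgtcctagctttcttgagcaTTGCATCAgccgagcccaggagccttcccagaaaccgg
Slc7a11: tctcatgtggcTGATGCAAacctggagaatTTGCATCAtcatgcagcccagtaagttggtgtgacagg
Herpud1: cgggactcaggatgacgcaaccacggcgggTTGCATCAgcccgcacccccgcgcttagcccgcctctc
Asns: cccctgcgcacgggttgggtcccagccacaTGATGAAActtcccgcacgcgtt
Pycr1: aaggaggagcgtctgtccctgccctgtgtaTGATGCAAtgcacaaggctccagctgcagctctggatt
Tars: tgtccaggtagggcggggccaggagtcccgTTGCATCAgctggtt
Nupr1: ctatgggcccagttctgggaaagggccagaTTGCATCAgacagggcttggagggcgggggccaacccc
Psat1 is shown for contrast: its 2-DG folds were among the highest, and its listed promoter held no match.
Psat1: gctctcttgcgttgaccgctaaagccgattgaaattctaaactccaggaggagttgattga
These sequences are RefSeq's, on build GRCm38.p6, for which mm10 is another name. They lie at chr2:119351019-119351086 (Chac1, plus strand), chr8:111033700-111033767 (Aars, plus), chr3:50443623-50443690 (Slc7a11, minus), chr8:94386287-94386354 (Herpud1, plus) and chr6:7693210-7693262 (Asns, minus). The others lie at chr11:120643814-120643881 (Pycr1, minus), chr15:11399659-11399703 (Tars, minus), chr7:126625543-126625610 (Nupr1, minus) and chr19:15925121-15925181 (Psat1, minus). In Slc7a11, the cystine importer gene, 2 matches lay in the stretch, on opposite strands.

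Of the 254 regions, 20 had their median 2-DG summit inside a listed promoter, which runs from 250 bases before the gene start to 50 after it. A match to TGATGNAA on either strand was present in 13 of the 20 promoters (65.0%). Among regions of all 4 2-DG lists and no control list the same letters were in promoters of 16 of 28 regions (57.1%), and among all 21045 listed promoters of protein-coding genes in 726 (3.45%). The palindrome TGACGTCA, the full cyclic AMP response element, was in 0 of the 20 promoters and in 475 of all listed promoters (2.26%). No 8 bases can match both. A match describes letters and does not show a bound site.

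The matches lay beside the 2-DG summits. The median distance from the middle of the nearest match to the median 2-DG summit was 9.50 bp over 13 promoters, with a range of 2.5 to 48.5 bp, and 9 of the 13 were within 25 bp. From the highest control summit to its own nearest match the median was 30.5 bp, with a range of 9.5 to 100.5 bp, and 5 of the 13 were within 25 bp. Taken in single lists, as the control summit was, the median distance was 10.5, 13.5, 11.5 and 18.5 bp for the summits of 2-DG replicates 1 to 4, of which 9, 9, 9 and 7 were within 25 bp. The median 2-DG summit was nearer to a match than the control summit in 9 of the 13 promoters, farther in 3 (Ank2, Slc1a4 and Tars) and as near in 1 (Cnpy2). The distance was 2.5 bp in Slc7a11, 4.5 bp in Asns, which encodes asparagine synthetase, and 4.5 bp in Nupr1, a stress-induced transcriptional regulator gene. In the same 3 promoters the control summit lay 70.5, 42.5 and 27.5 bp from a match. At Slc7a11 and Nupr1 the control fold was 3.64, the lowest of any peak in control replicate 1. Promoters were taken by where the 2-DG summit lay, not the control summit. How far either limit moved the control distances was not tested. In Tars, the threonyl-tRNA synthetase gene, the order was the other way, with 45.5 bp for the 2-DG summit and 21.5 bp for the control summit.

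**Figure D1:**
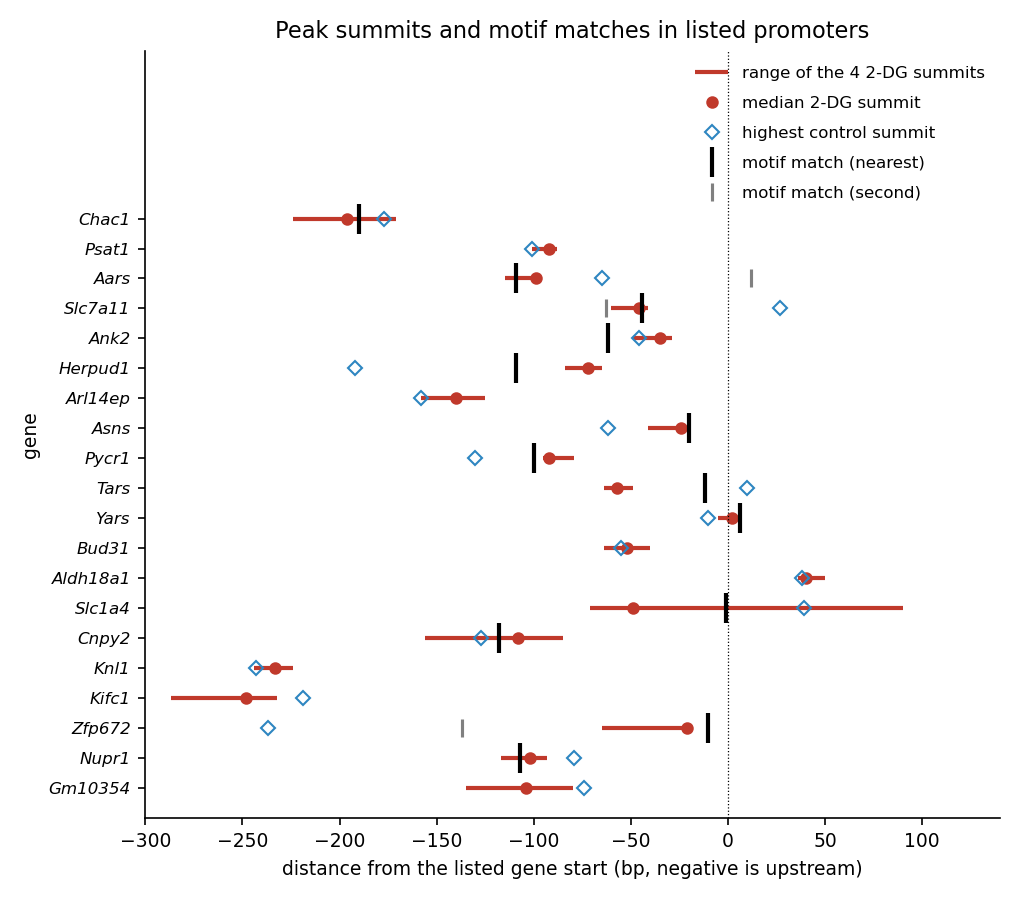
Positions of peak summits and motif matches relative to the listed gene start (x axis, bp, upstream negative) for the 20 promoters that held a 2-DG summit (rows, by median 2-DG fold). Filled circles are median 2-DG summits with the range of the 4 lists, open diamonds the highest control summit, and vertical ticks the matches, black for the one nearest to the 2-DG summit. The median distance to a match was 9.50 bp for the 2-DG summits and 30.5 bp for the control summits, each with its own nearest match.

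The 254 regions differed in which control lists shared them. Of the 254 regions, 100 were called in 1 control list, 58 in 2 and 96 in 3. Control replicate 1 held 150 of the regions, replicate 2 held 111, replicate 3 held 102 and replicate 4 held 141. Of all 1235 regions of the 4 2-DG lists, these control lists held 41.7%, 38.5%, 37.8% and 41.0%, in replicate order, so the control lists were alike in this overall share. They were not alike in what they held by themselves. Control replicate 1 was the only control list with a peak in 73 regions, against 5 for replicate 2, 9 for replicate 3 and 13 for replicate 4. Control replicate 1 was also the shortest of the 8 lists. The next commonest combinations were replicates 2, 3 and 4 together (43 regions) and replicates 1, 2 and 4 together (30 regions).

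**Figure D2:**
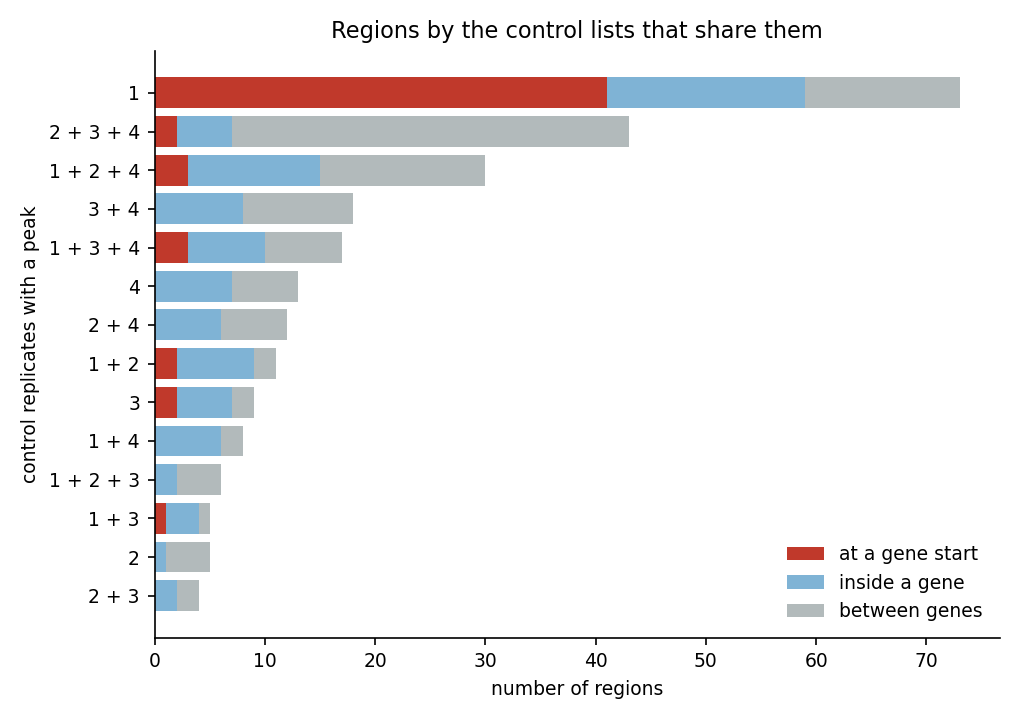
Number of regions (x axis) for each combination of control replicates with a peak (rows), coloured by place relative to protein-coding genes. The 73 regions of control replicate 1 alone form the longest bar, and 41 of them lay at a gene start.

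Most of the 73 regions of control replicate 1 alone had high folds after 2-DG and low folds in that control. Their median 2-DG fold over the 4 lists had a median of 26.99 with quartiles of 15.9 and 37.0, and the control fold had a median of 4.73 with quartiles of 4.36 and 6.54. The fold after 2-DG was at least 2 times the control fold in 68 of the 73, with a median ratio of 4.29. In 72 of the 73 the lowest of the 4 2-DG folds was above the control fold. It was above the highest control fold in 17 of the other 181 and in 89 of all 254 regions. Each of the 73 had only 1 control fold to clear, while others had up to 3. Within the 2-DG lists the median region of the 73 stood at the 99.3, 98.7, 97.2 and 96.9 percentile of all peaks by fold. In control replicate 1 it stood at the 70.7 percentile. The 73 regions were thus at the top of each 2-DG list and of middling rank in the control list.

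In most of the other 181 regions the called peaks of both treatments had like folds. Their median 2-DG fold had a median of 5.54 and their highest control fold a median of 6.36. The median ratio of these was 0.869, with quartiles of 0.767 and 1.02, and 6 of the 181 reached a ratio of 2. The 27 regions held by 1 control list other than replicate 1 belonged with these in fold, with a median ratio of 0.944. This ratio sets a median against a highest value, so it falls with the number of control lists by construction. With the median in place of the highest control fold, the median ratio was 4.29 for the 73 regions and 0.999 for the other 181, with quartiles of 0.916 and 1.15 for the 181. On that measure it was 3.35, 1.04 and 0.986 over regions of 1, 2 and 3 control lists, and at least 2 in 69, 5 and 0 of them. Both measures leave out any control list without a peak, while all 4 2-DG folds always count. Each of the 181 lacked a peak in at least 1 control list. Ratios near 1 therefore describe called peaks and do not show like signal over all 4 control lists. How far the missing folds moved the ratios was not tested.

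**Figure D3:**
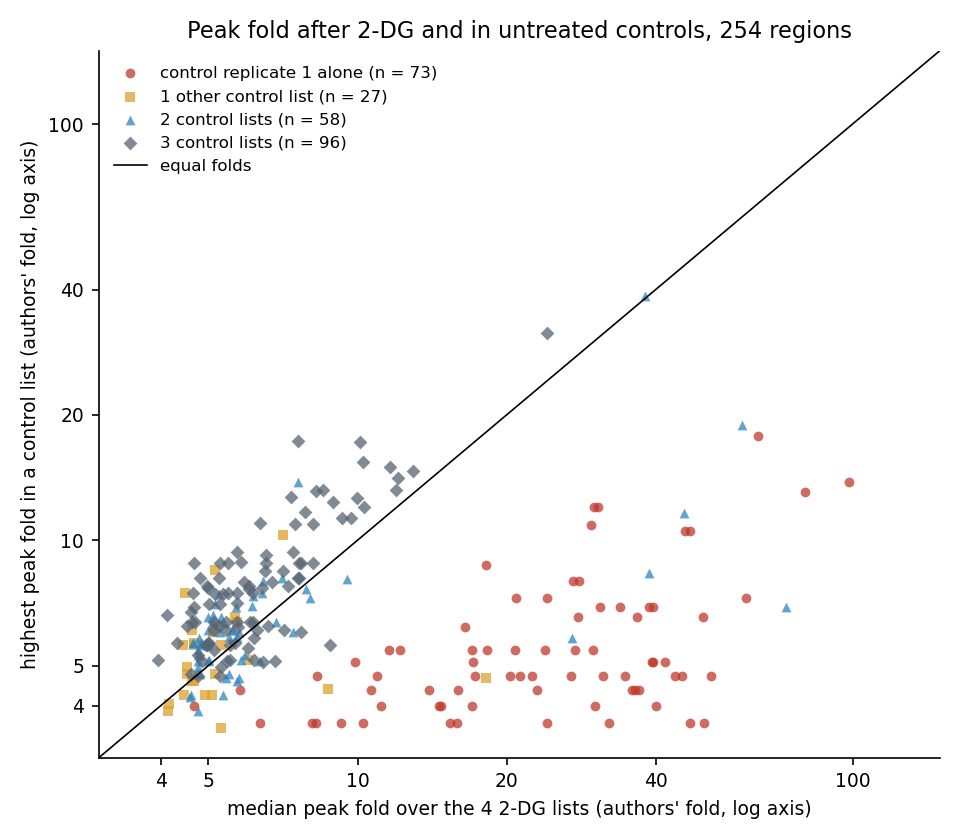
Median peak fold over the 4 2-DG lists (x axis) against the highest peak fold in a control list (y axis), both the authors' values on log axes, for each of the 254 regions. The regions of control replicate 1 alone lie to the right of the line of equal folds (median 26.99 after 2-DG and 4.73 in the control), and most others lie on or above it.

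Position relative to genes was not used in the choice, although the split into these 2 sets was made after the calls were seen. At a gene start, meaning within 2000 bp of a listed start, or of either end for genes without one, lay 41 of the 73 regions of control replicate 1 alone (56.2%, exact binomial 95% interval 44.1 to 67.8) and 13 of the other 181 (7.18%, 3.88 to 12.0). The share was 17.7% over regions of 2-DG alone, 8.77% over regions of all 8 lists and 5.65% over all merged regions. Between protein-coding genes lay 14 of the 73 (19.2%) and 97 of the 181 (53.6%). The median region was 779 bp wide in the set of control replicate 1 alone and 432 bp wide in the others. The 4 2-DG summits fell within a median of 34 bp of each other in the first set and 118 bp in the others. These intervals cover counting error only, and neighbouring regions are not independent.

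The share of regions with a control peak varied with the 2-DG fold, and control replicates 1, 2 and 3 each had their highest share where that fold was highest. Among the 44 regions with a median 2-DG fold of 40 or more, control replicate 1 held 93.2% (exact binomial 95% interval 81.3 to 98.6), replicate 2 held 59.1%, replicate 3 held 56.8% and replicate 4 held 54.5%. Among the 135 with folds of 20 to 40 the shares were 55.6% (46.8 to 64.1), 31.9%, 32.6% and 31.9%. In the 369 regions with folds of 10 to 20 replicates 1 to 4 held 30.4%, 26.6%, 26.3% and 26.6%. In the 601 regions with folds of 5 to 10 they held 41.1%, 44.3%, 42.6% and 47.4%, and of the 86 regions under a fold of 5 they held 40, 43, 45 and 56, with replicate 1 the lowest of the 4 in both. Of the 44 regions with the highest folds, 3 had no peak in any control list, 17 were among the 254, and 24 were in all 8 lists. The 24 count towards the share of every control list. Within the 73, the control replicate 1 fold had a Spearman correlation of 0.438 with the median 2-DG fold (n = 73 regions, a description across regions that share their libraries).

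**Figure D4:**
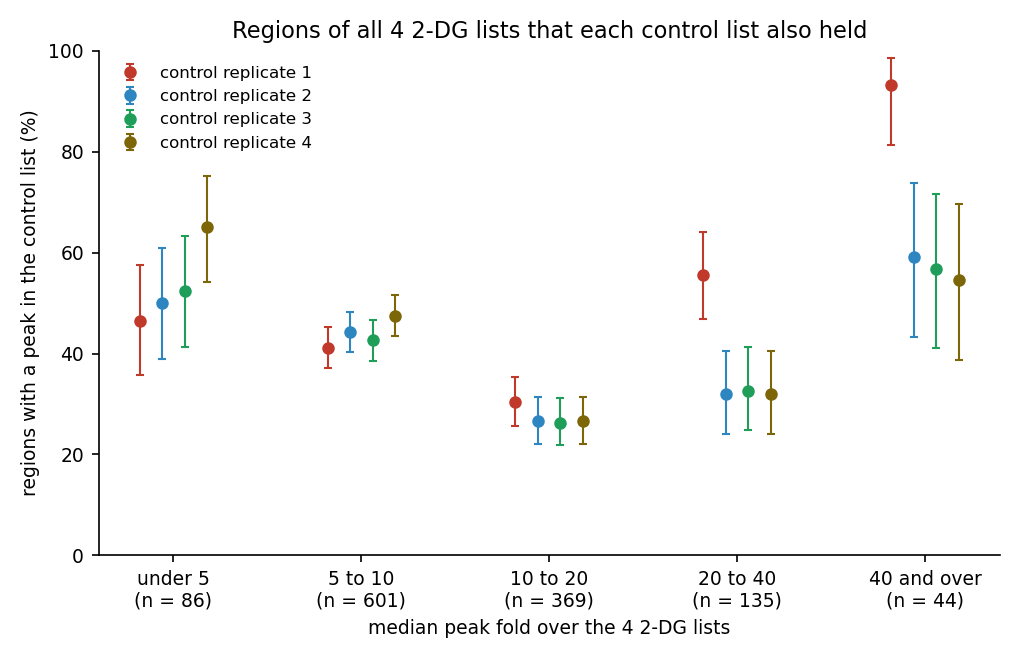
Share of the regions called in all 4 2-DG lists that each control list also held (y axis, %), by median 2-DG fold (x axis, with the number of regions). Points are shares and bars exact binomial 95% intervals; control replicate 1 stands at 55.6% and 93.2% in the upper pair of bins, above the other 3 controls.

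The folds of the 73 also had an order among the 2-DG lists. Their median was 42.4 in 2-DG replicate 1, 35.2 in replicate 2, 14.7 in replicate 3 and 17.3 in replicate 4. The highest of the 4 folds was in 2-DG replicate 1 in 69 of the 73 regions, and the lowest was in replicate 3 in 58 and in replicate 4 in 14. In the other 181 regions the highest fold was in replicates 1 to 4 in 51, 25, 60 and 45 regions. 2-DG replicate 1 was the longest list. How far depth or the strength of the immunoprecipitation moved with this order was not tested.

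Known ATF4 targets were frequent among the 73. A region of control replicate 1 alone lay within 2000 bp of a start or end of 17 of 44 listed ATF4 target genes, and no other member did. Of 21631 protein-coding genes, 48 (0.222%) had a region of control replicate 1 alone at a start or end, and 71 (0.328%) had any member region there. Of the 44 targets, 18 had a region of 2-DG alone there, against 146 of all 21631 genes (0.675%), and 0 had a region of all 8 lists, against 35 (0.162%). The targets were Aldh18a1, Asns, Atf5, Chac1, Ddit3, Eif4ebp1, Gpt2, Herpud1, Mthfd2, Nupr1, Psat1, Pycr1, Shmt2, Slc1a4, Slc3a2, Slc7a1 and Slc7a11. Control replicates 1 to 4 had a member region at 17, 0, 0 and 0 of the 44 genes. The list was drawn up with earlier results of these data known.

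Genes of glutathione turnover and amino acid import included the highest of these folds. Chac1 encodes an enzyme that degrades glutathione. Its region (chr2:119350116-119352431, with the summit 196 bp upstream of the gene start) had folds of 142, 128, 69.0 and 66.7 in the 2-DG lists, against 13.8 in control replicate 1. The Slc7a11 region (chr3:50443115-50444212, summit 46 bp upstream of a listed start) had folds of 87.8, 72.2, 26.9 and 27.9 in the 2-DG lists, against 3.64 in control replicate 1. No peak in that control list had a lower fold, and the ratio of 13.8 was the highest of the 254 regions. Slc3a2 encodes the heavy chain that pairs with the Slc7a11 and Slc7a5 transporters. Its region had folds of 67.7, 55.5, 19.6 and 24.6 in the 2-DG lists, against 4.00 in control replicate 1. A region inside Slc7a5, the large neutral amino acid transporter gene, had folds of 149, 105, 46.5 and 55.1 in the 2-DG lists, against 13.1 in control replicate 1. Its 149 was the highest fold of any member region in any list. Slc1a4, a neutral amino acid transporter gene, had 41.4, 33.8, 13.2 and 14.6 in the 2-DG lists, against 7.27 in control replicate 1. In each of these 5 regions all 2-DG folds were above the single control fold, as in 72 of the 73 regions of control replicate 1 alone. Of 24 amino acid transporter genes, 4 had a member region at a start or end (16.7%), against 0.328% of all protein-coding genes. All 4 (Slc1a4, Slc3a2, Slc7a1 and Slc7a11) are among the ATF4 targets counted above. A region of 2-DG alone lay at 3 of the 24, against 0.675% of all protein-coding genes.

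Enzymes that make serine, asparagine, proline and one-carbon units formed a group that largely repeats the ATF4 targets. Of 30 such enzyme genes, 8 had a region of control replicate 1 alone at a start or end. A region of 2-DG alone lay at 5 and a region of all 8 lists at 0. Over all protein-coding genes these shares were 0.222%, 0.675% and 0.162%. Of the 8 enzyme genes, all but Bcat1 are among the 17 ATF4 targets counted above, so their regions are counted again here. Psat1, a serine synthesis enzyme gene, had folds of 96.2, 78.3, 25.4 and 43.5 in the 2-DG lists, against 7.27 in control replicate 1. Asns had 63.1, 51.6, 18.6 and 25.9 in the 2-DG lists, against 6.91 in control replicate 1. Shmt2, the mitochondrial serine hydroxymethyltransferase gene, had 66.5, 48.7, 23.0 and 30.2 in the 2-DG lists, against 6.91 in control replicate 1. In each of these genes all 2-DG folds were above the single control fold, as in 72 of the 73 regions of control replicate 1 alone. Mthfd2, a mitochondrial folate enzyme gene, had 61.5, 45.9, 22.5 and 27.5 in the 2-DG lists, against 6.54 in control replicate 1. Pycr1 and Aldh18a1 act in proline synthesis, and their regions had median 2-DG folds of 31.3 and 27.2, against 4.73 and 8.00 in control replicate 1. Gpt2, an alanine aminotransferase gene, and Bcat1, a branched-chain aminotransferase gene, had median 2-DG folds of 34.7 and 17.2, against 4.73 in control replicate 1 for both.

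Aminoacyl-tRNA synthetases, which load transfer RNAs with their amino acids, were the list with the largest share of genes at member regions. Of 24 genes for synthetases and tRNA export, 10 had one (41.7%): Aars, Cars, Eprs, Gars, Lars, Mars1, Nars, Sars, Tars and Yars. In this list 1 gene had a region of 2-DG alone and 1 a region of all 8 lists. Over all protein-coding genes, 0.328% had a member region, 0.675% a region of 2-DG alone and 0.162% a region of all 8 lists. Control replicates 1 to 4 held member regions at 10, 1, 0 and 0 of the 24. The Aars region (chr8:111033245-111034163) had folds of 109, 86.1, 33.3 and 33.5 in the 2-DG lists, against 18.9 in control replicate 1 and 3.66 in control replicate 2. Its 18.9 was the highest fold of a member in control replicate 1. Ddx19b also has a start or end within 2000 bp of that region. In the other 9 synthetases the ratio of median 2-DG to highest control fold lay both above and below 4.29, the median of the 73 regions. Mars1 had 47.0, 42.0, 15.7 and 19.2 in the 2-DG lists, against 12.0 in control replicate 1. Yars had 46.4, 37.0, 19.1 and 22.2 in the 2-DG lists, against 10.9 in control replicate 1. Eprs had the lowest folds of the synthetases, with 10.2, 8.54, 5.38 and 9.95 in the 2-DG lists, against 3.64 in control replicate 1. Over the 10 genes the ratio of median 2-DG to highest control fold ran from 2.51 at Cars to 8.49 at Sars.

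**Figure D5:**
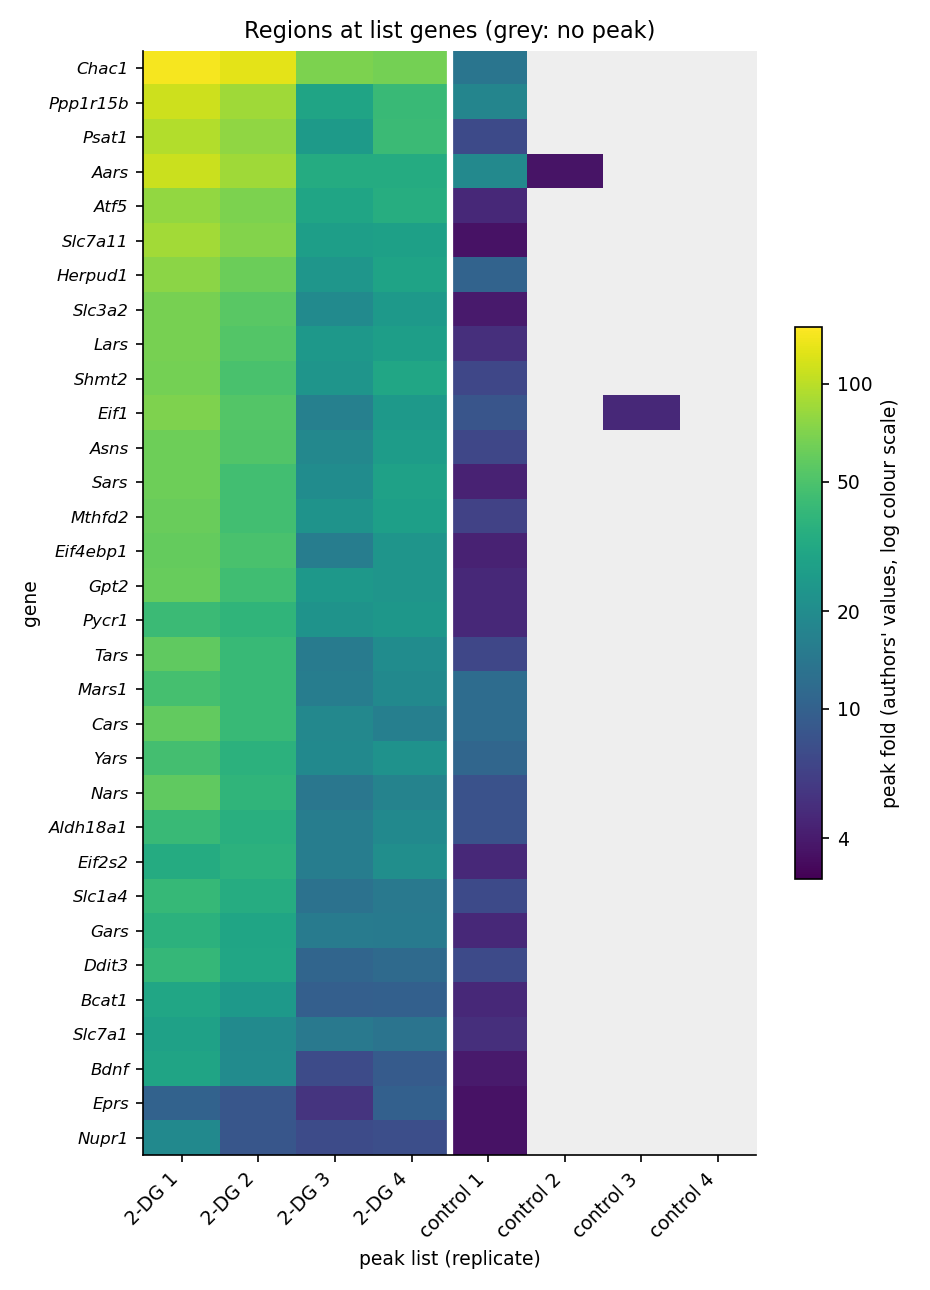
Peak fold (authors' values, log colour scale) of the member regions at genes of the lists, with the 2-DG lists on the left, the control lists on the right and grey where no peak was called. All 32 regions have a peak in control replicate 1, while Aars alone has one in control replicate 2 and Eif1 alone in control replicate 3.

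Further member regions lay at genes that control translation and at genes of stress-induced transcription factors. Ppp1r15b encodes a subunit of the phosphatase that removes phosphate from eIF2. Its region had folds of 112, 86.1, 29.3 and 42.8 in the 2-DG lists, against 17.8 in control replicate 1, the highest control fold of the 73. Eif4ebp1, a translation repressor gene under mTORC1, had 59.4, 48.7, 15.7 and 22.9 in the 2-DG lists, against 4.36 in control replicate 1. Eif1, a start-codon selection factor gene, had 70.5, 53.0, 16.6 and 24.6 in the 2-DG lists, against 8.36 in control replicate 1 and 4.68 in control replicate 3. Of 25 genes of translation control, these 3 and Eif2s2, an eIF2 subunit gene, had a member region (16.0%), against 0.328% of all protein-coding genes. A region of 2-DG alone lay at 2 of the 25, against 0.675% of all protein-coding genes. Eif4ebp1 is, with Atf5, Ddit3 and Nupr1 below, among the 17 ATF4 targets counted above. Atf5 encodes a leucine zipper factor related to ATF4. The region assigned to it lay over Il4i1b with its summit 2462 bp from the listed Atf5 start, and had 80.1, 69.4, 29.8 and 34.2 in the 2-DG lists, against 4.73 in control replicate 1. Ddit3, the gene of the pro-apoptotic factor CHOP, had 40.8, 30.2, 10.8 and 11.6 in the 2-DG lists, against 7.27 in control replicate 1. At Ddit3 all 4 2-DG folds were above the single control fold, as in 72 of the 73 regions of control replicate 1 alone. Mbd6 also lies within 2000 bp of the Ddit3 region. Nupr1 had 19.2, 8.54, 7.34 and 7.63 in the 2-DG lists, against 3.64 in control replicate 1, which was 10 steps of the grid on which that list's low folds lay.

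Of 24 genes for chaperones, degradation factors and sensors of the endoplasmic reticulum, Herpud1 was the only one with a member region at a start or end. A region of 2-DG alone also lay at 1 of the 24, against 0.675% of all protein-coding genes. Herpud1 encodes a membrane protein of the degradation pathway and is also among the ATF4 targets counted above. It had folds of 76.4, 62.6, 23.5 and 29.2 in the 2-DG lists, against 10.5 in control replicate 1. Among 16 autophagy genes, 32 genes of glycolysis and N-glycosylation, 18 genes of stress cell death and 21 neuronal markers, 0 had a member region there. At the share of 0.328% over all protein-coding genes, lists of these sizes would seldom hold one, so nothing is read from the 0. The 5 marker lists for progenitors, astrocytes, oligodendrocytes, microglia and vascular cells also had 0. Peaks do not report cell type, so these marker lists say nothing of which cells were present.

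At Bdnf, which encodes brain-derived neurotrophic factor, the member region (chr2:109677958-109678536) had its summit 1222 bp after a listed start, inside the gene. Its folds were 29.4, 19.9, 7.34 and 9.29 in the 2-DG lists, against 4.00 in control replicate 1 and no peak in the other control lists. The 2-DG folds were spread widely. The lowest still stood above the single control value, as in 72 of the 73 regions of control replicate 1 alone. Bdnf was the only 1 of 10 genes for neurotrophins and their receptors with a member region at a start or end. Of the 10, 0 had a region of 2-DG alone there. Over all protein-coding genes, 0.328% had a member region there and 0.675% a region of 2-DG alone. At 0.675% a list of 10 genes would seldom hold one, so nothing is read from the 0.

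Outside the gene lists, regions were named for the highest 2-DG folds and for the extremes of the ratio. Amotl2 and H4c14, below, are among the 6 of the other 181 regions whose 2-DG fold was at least 2 times the control fold. A region 2263 bp from Amotl2, a gene of the angiomotin family, had folds of 132, 93.5, 41.6 and 53.4 in the 2-DG lists, against 6.91 in control replicate 1 and 4.21 in control replicate 3. A region between genes on chromosome 17, 138703 bp from 1600014C23Rik, had 86.3, 63.0, 30.3 and 30.9 in the 2-DG lists, against 3.64 in control replicate 1. Both lay outside the window of 2000 bp around gene starts. H4c14, a histone H4 gene with near-identical copies elsewhere in the genome, had 78.3, 61.5, 14.7 and 29.9 in the 2-DG lists, against 11.6 in control replicate 1 and 5.50 in control replicate 2. At the other extreme, a region 80139 bp from Asmt on chromosome X had 5.88, 4.27, 12.2 and 9.29 in the 2-DG lists, against 8.06, 17.3 and 8.13 in control replicates 2 to 4. A region inside Creb1, a gene of another leucine zipper factor, had 4.33, 7.83, 7.34 and 11.3 in the 2-DG lists, against 12.4 in control replicate 1 and 13.8 in control replicate 4. The called 2-DG and control folds overlapped at Asmt and did not at Creb1, where both called control folds were higher. Control replicates 2 and 3 had no peak at Creb1, and control replicate 1 had none at Asmt. These lists are left out of that comparison.

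Part of the other 181 regions gathered in a few segments of the genome. Runs of at least 5 members within 1000000 bp occurred in 4 segments, which held 43 of the 254 regions and 0 of the 73. The segment chr5:14908413-15691106 held 18 members near genes such as Speer4c, Speer4d and Speer4e, of a family of spermatogenesis-associated genes. Their ratios of 2-DG to control fold ran from 0.590 to 1.09. The segment chr1:84993345-85626003 held 10, near Sp110 and Sp140, which encode nuclear body proteins, and their ratios ran from 0.607 to 1.10. The segment chr8:19698847-20994420 held 9, near the defensin gene Defa21, with ratios from 0.677 to 1.98. The segment chr4:145434511-145592646 held 6, near the zinc finger gene Zfp990, with ratios from 0.714 to 1.20. In the order given, these segments held 203, 234, 106 and 61 merged regions of any kind. Of those, 29, 55, 7 and 4 were regions of all 8 lists and 0 were regions of 2-DG alone. Of all 35717 merged regions, 365 were of all 8 lists, 616 of 2-DG alone and 254 were members. They carry gene families with similar copies. The labels do not say how reads that match several places were assigned, so which copy a peak belongs to is uncertain.

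Some regions of 2 or 3 control lists had no excess after 2-DG over their called control folds. The highest folds among these lay close to the low-coordinate ends of chromosomes 9 and 11. A region inside Sfi1, a centrosome protein gene (chr11:3175082-3180329), had folds of 37.4, 38.8, 29.3 and 40.1 in the 2-DG lists, against 33.7 and 38.5 in control replicates 3 and 4. A region 76302 bp from Alkbh8 (chr9:3258819-3258929) had 23.8, 21.7, 24.5 and 28.2 in the 2-DG lists, against 21.6, 25.7 and 31.5 in control replicates 2 to 4. The called folds of the 2 treatments overlapped at both. A region 12913 bp from Cwc22 on chromosome 2 had 16.1, 15.7, 6.36 and 8.30 in the 2-DG lists, against 9.45, 13.2 and 9.19 in control replicates 1, 2 and 4, again with overlap.

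The 2 lists with conflicting labels were not used in the choice. The list titled as 2-DG and described as control called 68 of the 73 regions of control replicate 1 alone (93.2%, exact binomial 95% interval 84.7 to 97.7) and 146 of the other 181 (80.7%). It called 527 of the 616 regions of 2-DG alone (85.6%). The list titled as control and described as 2-DG called 0 of the 73, which with the exact interval allows up to 4.93%, and 126 of the other 181 (69.6%). It called 3 of the 616 regions of 2-DG alone (0.487%). Of the regions of all 8 lists, the list titled as 2-DG called 96.7% and the list titled as control called 96.4%. The median fold of the 68 regions was 13.2 in the list that called them.

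Near the rule, 539 regions were called in 3 2-DG lists and 1 to 3 control lists and so were not members. The median of their median 2-DG fold was 4.95, against 6.37 for members. The missing 2-DG list was replicates 1 to 4 in 44, 146, 245 and 104 of them. Without control replicate 1 the rule gave 138 regions, of which 11 lay at a gene start, against 254 and 54 with it. The 73 regions then count as regions of 2-DG alone. The 43 regions of control replicates 2, 3 and 4 together then count as regions of all remaining lists, and also drop out.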

How the data were processed

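ATF4 immunoprecipitations from mouse neurons were described from peak lists, 4 of 2-DG and 4 of control, and 2 with conflicting labels were kept apart. The authors worked with BWA, Picard and MACS2 on mm10, per the submitters' processing notes, which give no versions. Peak names in the deposited files carry 1 sample each, so replicates were not pooled before calling. The deposited fold is a ratio of a peak to a background. Each peak also has the authors' p and q as -log10 values, and a deposited score of 10 times -log10 q as a whole number. Chromatin preparation, filters and the antibody of the controls are not given in the sources used here, and the extraction text describes RNA. Deposited fold values under 8 lay on a grid of whole steps in every list (within 0.0002), of 0.309 to 0.489, so low folds are coarse. With a single step per list, these folds share a single background value, so they are not read as adjusted for local signal.

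Repeated intervals were counted once. Peaks sharing 1 bp over the 8 lists were merged with Python 3.11.15, pandas 2.3.3 and NumPy 2.4.6, and each region took its highest fold per list. Code was tested on simulated lists, where 250 of 250 planted regions were recovered. Genes and promoters came from RefSeq tables of GRCm38.p6: 21631 protein-coding genes, 17274 with a listed start. All 275 list genes matched, 2 by an older name. Shares have exact binomial intervals (SciPy 1.17.1). No test between groups was run, because the rule used the same calls. Members, gene lists and the naming rule were chosen with earlier results of these data known. Named were regions at list genes and Bdnf, the 5 highest 2-DG folds per number of control lists, the 5 lowest and 5 highest ratios, and runs of 5 or more members. Alternatives changed the q or fold minimum, list length, overlap, summit windows, chromosomes, gene windows and the lists used.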

Additional observations from a re-analysis of the deposited data

Results flagged for a closer look

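In 65 groups of 4 lists, 10 had a value far from the other 3. Chance alone flags about 1 in 20 independent groups, which would be 3.2 here. These groups are not independent, since 47 are folds of named regions in the same 2-DG lists. The 10 are therefore not weighed against 3.2. Control replicate 1 stood apart in 8 of the 10. It was the only control list with a peak in 73 regions, against 5, 9 and 13 for replicates 2, 3 and 4, and it held 50 of the 54 regions at gene starts, against 7, 8 and 8. It held member regions at 17 ATF4 targets, at 10 genes of the synthetase list and at 8 amino acid enzyme genes, where the other control lists held 0 or 1. Its share of recurrent 2-DG regions was 30.4%, 55.6% and 93.2% at 2-DG folds of 10 to 20, 20 to 40 and 40 or more. These values overlap in the regions they count. 2-DG replicate 1 had 15240 peaks, over 2 times the next 2-DG list. The Nupr1 fold in the same list was 19.2, against 7.34 to 8.54 in the other 3. In data outside the comparison, the list titled as 2-DG and described as control called 68 of the 73 regions of control replicate 1 alone. The cause of each was not tested.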

How the results depend on the processing

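These counts were recomputed: all members, members of 1, 2 and 3 control lists, members at gene starts and members called in control replicate 1. Of 64 alternative values that kept all lists or added the conflicting pair, 41 stayed within 1.5 times the reported count. A -log10 q of at least 5 gave 102 members, 37, 18 and 47 of 1, 2 and 3 control lists, 31 at gene starts and 65 in control replicate 1. A fold of at least 5 gave 113, 46, 20, 47, 34 and 67 in that order. The 3461 highest peaks of each list gave 125 members, with 14 of 2 and 37 of 3 control lists, and the other 3 counts stayed within 1.5 times. Adding the conflicting pair by title gave 31 of 2 and 29 of 3 control lists. Adding it by description gave 135, 5, 16, 31, 8 and 58.

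Leaving out 1 list gave 138 to 497 members. Members of 1 control list ran from 53 to 166, of 2 from 72 to 140 and of 3 from 108 to 191. Members at gene starts ran from 11 to 78, and those in control replicate 1 from 120 to 261. Counts of members moved by over 1.5 times without 2-DG replicate 2 (399), 2-DG replicate 3 (497) and control replicate 1 (138). Fewer lists make the rule easier to meet on the 2-DG side. On the control side, a region in all remaining control lists no longer meets it. Both ends of every gene (67) and region middles (51) in place of gene starts were chosen after seeing the data. No paired analysis was possible because no label ties a 2-DG list to a control list, and no result comes from a test. Depth is unknown, so no limit of detection in reads can be given. The lowest fold of any listed peak ran from 3.40 in 2-DG replicate 1 to 3.91 in 2-DG replicate 3.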
